A study of Mus musculus with 3 samples.

Results

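Transcripts of 38 lysosomal genes were examined in cells taken from the vestibule, the part of the mouse inner ear that senses balance. The genes encode glycosidases, sulfatases, lipid-degrading enzymes, a few peptidases, enzyme activators, lipid carriers, the granulin precursor and proteins of the lysosomal membrane. Cathepsins were left out. They were found by gene name, and all 38 had 1 row each among the 57180 genes of the deposited table. The study collected 18 wild-type cells with the look of a black ball from 9 mice, with 3 mice per group, and made 3 libraries of 1 group with SMART-Seq HT, which copies polyadenylated RNA from very few cells. No strain, age, treatment or control group is given, and the labels do not say which cells or mice entered which library, so every p-value reflects the spread of 3 libraries that may differ for technical reasons alone.

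The labels name the cells macrophages, while the series title speaks of melanocytes. Levels are given as TPM, the unit of transcript abundance that divides counts by gene length and adds up to the same total in each library. A gene was called above 1 TPM when limma's one-sided test of its mean over the 3 libraries had a Benjamini-Hochberg adjusted p under 0.05. By that rule 13 of 15 macrophage markers were called, with summed levels of 4788 to 7627 TPM, and 9 of 15 melanocyte markers, with 582 to 715 TPM, while the rule called 50.5% of the protein-coding genes tested. Lyz2, the lysozyme of myeloid cells, alone made up 6490, 3513 and 3845 TPM of the macrophage sums in replicates 1, 2 and 3. The median gene stood at 23.6 TPM in the macrophage list and at 10.6 TPM in the melanocyte list. Each list held high and low genes. Dct and Mlana were the highest of the melanocyte list, at 236 to 273 TPM and 193 to 254 TPM over the libraries. Oca2 and Mc1r of that list were both listed at 0 in replicates 2 and 3. Of the macrophage list, Cx3cr1 and Itgam were not called, with means of 1.28 and 0.627 TPM. Markers of epithelium (7 of 8), hair cells (8 of 8), fibrocytes (7 of 8) and red cells (5 of 6) were called as well. Their median genes stood above that of the macrophage list, at 149, 33.2, 62.6 and 3591 TPM in that order. The fibrocyte sums (9474 to 13254 TPM) and red cell sums (21788 to 51505 TPM) exceeded the macrophage sums. The epithelium sums (1772 to 2565 TPM) and hair cell sums (349 to 544 TPM) were below them. Coch and Otos, with means of 8005 and 3433 TPM, made up most of the fibrocyte sums. The next gene of that list, Dcn, had a mean of 336 TPM, and Col3a1, at 2.78 TPM, was not called. Each library is 1 sum over its cells, so fewer cells of a type and less RNA per cell cannot be told apart. The libraries held 14095521 to 18460546 counts, and a floor of 3 counts stood for 0.163 to 0.213 CPM, counts scaled to the library total without gene length, which covers counting error only.

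Lysosomes are acidic compartments in which hydrolases take apart glycans, lipids and proteins that a cell has engulfed or no longer needs. Each glycosidase or sulfatase removes a particular sugar or sulfate group, so loss of a single enzyme leaves its substrate stored in the lysosome. Macrophages depend on this system to digest what they take up. Melanosomes, the pigment granules of melanocytes, arise from endosomes and share several proteins with lysosomes, and the transcription factors TFEB, TFE3 and MITF bind related E-box motifs near the start sites of many lysosomal genes.

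Every one of the 38 genes had counts in all 3 libraries, and 33 were called above 1 TPM. Counts of the 38 genes made up 0.385%, 0.356% and 0.442% of replicates 1, 2 and 3, a mean of 0.394% ± 0.0436 (SD, n = 3, as for every ± below). The rule called 37.6% of the 27265 genes with a count in any library and 50.5% of the protein-coding genes among them. A mean above 10 TPM was called for 16 of the 38, against 14.7% of all genes tested and 19.2% of the protein-coding ones. The median level of the 38 genes was 14.1 TPM, beside 2.24 TPM over all genes tested and 4.55 TPM over the protein-coding ones. Leaving out a library leaves 2, and the count above 1 TPM was then 26, 29 and 27 without replicates 1, 2 and 3. The count above 10 TPM was 7 without replicate 1, 11 without replicate 2 and 12 without replicate 3. Calls over all genes fell as well, from 10264 to 6794, 7672 and 8285 above 1 TPM and from 4017 to 1606, 2383 and 3277 above 10 TPM.

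The mean levels spanned 354 TPM for Cd63 to 1.45 TPM for Sgsh. The 5 most abundant genes, Cd63, Lamp1, Hexa, Psap and Npc2, held 59.9% of the summed TPM of the 38. Proteins of the membrane held 40.9% of that sum, glycosidases with Aga 22.7%, and activators and lipid carriers with Grn 18.8%. Lipid hydrolases with the thioesterases held 8.27%, the peptidases with the phosphatase Acp2 5.25%, and sulfatases with the acetyltransferase Hgsnat 4.11%. The order was graded: among the 37 pairs of neighbours in it, the libraries of 35 overlapped. The pairs that did not overlap were Lamp1 above Hexa and Galns above Ppt2.

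**Figure D1:**
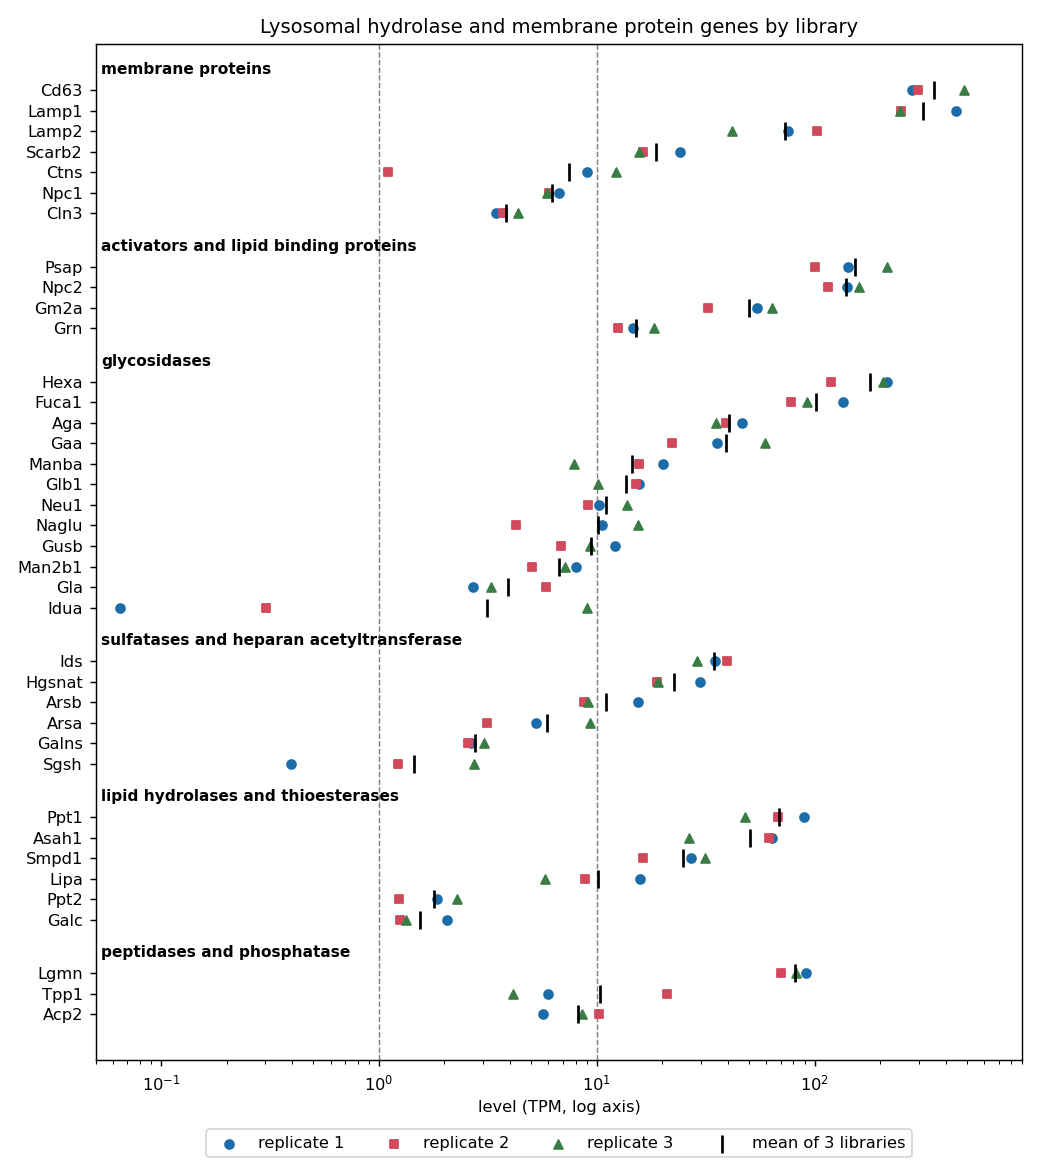
Level of each of the 38 lysosomal genes in each library, in TPM on a log axis, grouped by role and ordered by mean; the bars mark means of 3 libraries and the dashed lines 1 and 10 TPM. Cd63 and Lamp1 lie farthest right, while single libraries of Idua, Ctns and Tpp1 stand far from the other two.

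Promoters of the 38 genes were searched for the palindromic E-box core CACGTG, the class of motif that TFEB, TFE3 and MITF bind. RefSeq promoters of build GRCm38.p6, 250 bases before to 50 after each start site, were matched for 33 of the 38 genes. The motif was present in 9 of these 33 (27.3%), Arsa, Cln3, Gaa, Gla, Glb1, Lamp1, Lgmn, Naglu and Sgsh, and in 8.09% of the 27025 genes with a promoter in that table. The longer form TCACGTGA, which contains the core, was in 2 of the 33 (6.06%), Cln3 and Gla, and in 1.12% of all. Being palindromes, both motifs read the same on either strand. A match describes these letters and does not show binding. The promoter of Lamp1, shown because it holds 4 copies, follows with CACGTG in capitals.
Lamp1, chr8:13158911-13159210, plus strand: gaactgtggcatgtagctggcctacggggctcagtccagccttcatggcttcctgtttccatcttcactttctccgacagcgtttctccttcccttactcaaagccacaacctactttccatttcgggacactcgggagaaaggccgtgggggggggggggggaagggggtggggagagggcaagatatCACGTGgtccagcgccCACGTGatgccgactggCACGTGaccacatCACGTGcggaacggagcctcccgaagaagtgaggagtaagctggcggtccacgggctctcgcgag

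The copies in the Lamp1 promoter began 61, 45, 28 and 15 bases before the start site. In the other 8 promoters the motif began between 227 bases before the start site, in Gla, and 16 bases before it, in Arsa. Those sites are shown with 12 bases on each side, to let the flanks be compared, with CACGTG again in capitals.
Cln3, chr7:126583368-126583397, minus strand: gcaaccctcaagCACGTGatggaaggctca
Cln3, chr7:126583340-126583369, minus strand: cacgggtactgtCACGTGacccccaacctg
Glb1, chr9:114401018-114401047, plus strand: ctgcttctgagtCACGTGgcctacagaggc
Naglu, chr11:101070009-101070038, plus strand: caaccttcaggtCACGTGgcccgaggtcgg
Gaa, chr11:119267811-119267840, plus strand: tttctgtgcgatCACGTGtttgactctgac
Sgsh, chr11:119355522-119355551, minus strand: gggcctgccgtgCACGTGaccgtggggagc
Lgmn, chr12:102439124-102439153, minus strand: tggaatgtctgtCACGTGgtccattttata
Arsa, chr15:89477423-89477452, minus strand: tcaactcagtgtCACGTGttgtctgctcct
Gla, chrX:134601215-134601244, minus strand: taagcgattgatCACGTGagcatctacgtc
Gla, chrX:134601182-134601211, minus strand: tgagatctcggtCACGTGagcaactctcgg

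The levels of genes with and without the motif overlapped across most of their range. With it, the median level was 10.1 TPM (1.45 to 314 TPM), beside 14.9 TPM for the 24 matched genes without it. The median SD between libraries was 0.49 with and 0.43 without the motif on the log2(TPM + 1) scale. Of the 9, 8 were called above 1 TPM, and of the 24, 21 were, beside 50.5% of the protein-coding genes tested. Lamp1, with 4 copies, was the second most abundant of the 38 genes, while Sgsh, with 1, was the lowest.

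**Figure D2:**
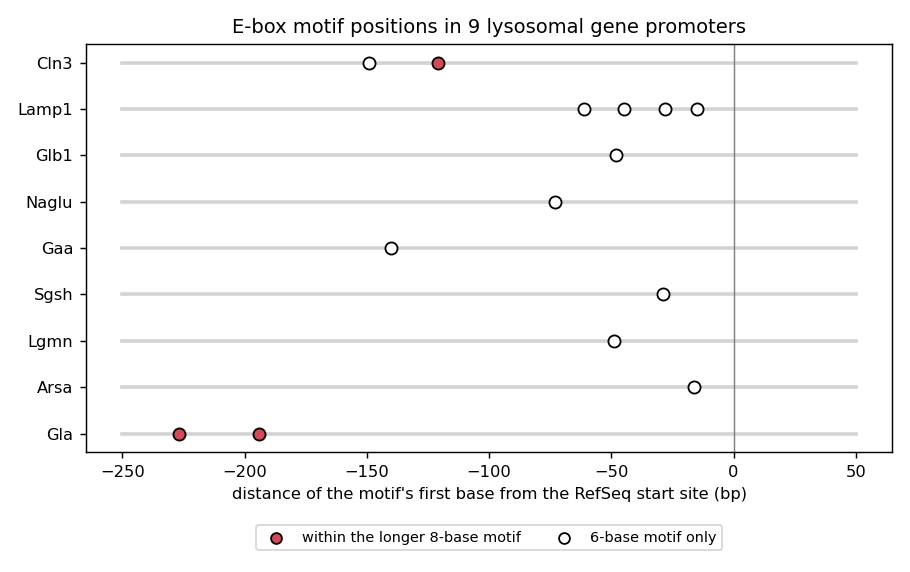
Position of each CACGTG motif in the 9 promoters that hold it, as the distance in bp of its first base from the RefSeq start site; grey lines are the windows searched and filled points lie within TCACGTGA. Lamp1 holds 4 motifs, all within 61 bases of the start site.

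The membrane proteins were all called above 1 TPM, 7 of 7. Beside this and the role groups below, 50.5% of the protein-coding genes tested were called above 1 TPM and 19.2% above 10 TPM. Cd63, a tetraspanin of late endosomes, lysosomes and melanosomes (GRCm39 chromosome 10, 128736858 to 128748691), stood at 279, 299 and 485 TPM in replicates 1, 2 and 3. Replicate 3 was the high one. This level is uncertain because a near-identical copy, the pseudogene Cd63-ps, named here after its values were seen, was counted as well. Cd63-ps took 5483, 8377 and 13240 counts beside 10433, 10169 and 16157 for Cd63, and the labels do not state how reads that match both were assigned. Over the shorter length of the pseudogene those counts came to 1850 ± 886 TPM. Lamp1, a heavily glycosylated protein that lines the lysosomal membrane (chromosome 8, 13209161 to 13225338), stood at 447, 248 and 247 TPM, with replicate 1 high and the others alike. Its partner Lamp2, which also serves chaperone-mediated autophagy (chromosome X, 37490234 to 37545331), stood at 75.7, 103 and 42.0 TPM, so the order of the libraries differed from that of Lamp1.

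The remaining membrane proteins were far lower. Scarb2, or LIMP-2, the receptor that carries glucocerebrosidase to the lysosome, stood at 24.2, 16.2 and 15.7 TPM. Npc1, which exports cholesterol (chromosome 18, 12322749 to 12369457), was the steadiest of the 38 at 6.72, 6.03 and 5.88 TPM. Its counts of 903, 737 and 704 came with a gene length of 18091 bp behind the deposited values, the longest of the 38. Rmc1, which overlaps it, had 459, 310 and 202 counts. Cln3, a membrane protein whose loss causes a storage disease of neurons, stood at 3.44, 3.71 and 4.35 TPM. Ctns, the cystine exporter (chromosome 11, 73074422 to 73089868), stood at 9.05, 1.10 and 12.2 TPM, with 370, 41 and 446 counts. Replicate 2 lay far below the others. The call for Ctns was near the threshold (limma, adjusted p = 0.0489), and it ended without replicate 1 (0.323) and without replicate 3 (0.311). The call for Cln3 (adjusted p = 0.0251) ended whichever library was left out (limma, adjusted p = 0.105, 0.123 and 0.103 without replicates 1, 2 and 3).

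Activators and lipid carriers, with Grn placed among them, were the role group with the highest median, 94.5 TPM, and 4 of 4 were called above 1 TPM. Psap is cut into the saposins that activate sphingolipid hydrolases (chromosome 10, 60113449 to 60138376). It stood at 143, 101 and 214 TPM, with replicate 3 high and replicate 2 low. Npc2, the soluble carrier that hands cholesterol to NPC1 (chromosome 12, 84801336 to 84819926), varied less, at 142, 116 and 159 TPM. Gm2a, which lifts GM2 ganglioside out of the membrane for hexosaminidase A, stood at 54.2, 32.5 and 63.6 TPM. Grn, the precursor of the granulins, stood at 14.7, 12.5 and 18.3 TPM. In each of these 4 genes replicate 2 was lowest and replicate 3 highest.

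Of the 12 genes grouped as glycosidases, 11 were called above 1 TPM and 4 above 10 TPM. The group includes Aga, which is not a glycosidase in the strict sense because it cuts the bond to asparagine. Hexa, the alpha subunit of hexosaminidase A (chromosome 9, 59446823 to 59472392), led at 214, 118 and 205 TPM, with replicate 2 low. Fuca1, which removes fucose, stood at 135, 77.9 and 91.9 TPM. Aga, which splits the sugar from asparagine in the last step of glycoprotein breakdown, was even across libraries at 46.5, 39.3 and 35.3 TPM. Gaa, the acid glucosidase that degrades glycogen, ranged from 22.2 TPM in replicate 2 to 59.3 TPM in replicate 3. The beta-mannosidase Manba (14.5 ± 6.23 TPM), the beta-galactosidase Glb1 (13.7 ± 3.04), the sialidase Neu1 (11.0 ± 2.41), the beta-glucuronidase Gusb (9.45 ± 2.65) and the alpha-mannosidase Man2b1 (6.73 ± 1.51) formed a middle group. Gla, the alpha-galactosidase, was lower at 2.70, 5.82 and 3.27 TPM. The call for Gla (limma, adjusted p = 0.0357) ended without replicate 1 (0.109), replicate 2 (0.207) or replicate 3 (0.122), and that for Man2b1 ended without replicate 1 (0.0527).

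The enzymes that degrade heparan sulfate, a chain of alternating modified sugars, act on the same chain in turn, and their mean levels ran from 1.45 TPM for Sgsh to 34.4 TPM for Ids. Ids, the sulfatase that opens the pathway, stood at 34.9, 39.5 and 28.9 TPM. Idua, which then removes iduronic acid (chromosome 5, 108808197 to 108832423), stood at 0.0647, 0.302 and 9.01 TPM. Its counts were 4, 17 and 497, so the transcript was near the floor in replicate 1 and plain in replicate 3 alone. Idua was the glycosidase that was not called (limma, adjusted p = 0.653). The genes Dgkq and Slc26a1, which overlap Idua in the table, were listed at 0 counts in each library.

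Sgsh, the sulfamidase of the same pathway, was the lowest of the 38 genes at 0.394, 1.22 and 2.73 TPM, with 38, 107 and 235 counts, and was not called (limma, adjusted p = 0.624). Hgsnat, a membrane enzyme that acetylates the glucosamine exposed by SGSH, stood at 29.9, 18.9 and 19.0 TPM. Naglu, which removes that glucosamine, stood at 10.5, 4.24 and 15.5 TPM. Leaving out replicate 1 or 3 ended its call (limma, adjusted p = 0.0985 and 0.0652). Card14, which overlaps Sgsh, had 60, 0 and 0 counts. Within each library Hgsnat lay above Sgsh. Idua and Sgsh were both highest in replicate 3 and lowest in replicate 1, while Ids was lowest in replicate 3.

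The other sulfatases were lower than Ids. Arsb, which acts on dermatan and chondroitin sulfate, stood at 15.4, 8.69 and 9.09 TPM. Arsa, the sulfatide sulfatase that myelin turnover depends on, stood at 5.24, 3.13 and 9.33 TPM. Leaving out replicate 1 or 3 ended its call (limma, adjusted p = 0.121 and 0.0952). Galns, which acts on keratan sulfate and chondroitin sulfate, was steady at 2.64, 2.56 and 3.04 TPM. Galns had only 77, 68 and 79 counts and was not called (limma, adjusted p = 0.0867). Together with Hgsnat, 4 of 6 genes in this group were called above 1 TPM.

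Among the lipid hydrolases and thioesterases, 4 of 6 were called above 1 TPM. Ppt1, which removes palmitate from proteins (chromosome 4, 122730035 to 122752968), stood at 89.1, 68.0 and 47.9 TPM. Its relative Ppt2 stood at 1.85, 1.24 and 2.28 TPM and was not called (limma, adjusted p = 0.305). A long noncoding gene that overlaps Ppt2, 2610029K11Rik, had 252, 141 and 329 counts beside 80, 49 and 88 for Ppt2 itself. Asah1, the acid ceramidase, stood at 63.6, 61.9 and 26.6 TPM, with replicate 3 low. Smpd1, the acid sphingomyelinase that makes ceramide, stood at 27.1, 16.3 and 31.4 TPM, with replicate 3 high. Lipa, which frees cholesterol and fatty acids from esters and triglycerides, stood at 15.8, 8.80 and 5.79 TPM, and its call ended without replicate 2 (limma, adjusted p = 0.0547). Galc, the enzyme for the myelin lipid galactosylceramide, stood at 2.05, 1.25 and 1.33 TPM and was not called (limma, adjusted p = 0.407).

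The small group of peptidases and the phosphatase was called 3 of 3. Lgmn, or legumain, an asparagine-specific endopeptidase (chromosome 12, 102360343 to 102406072), was even across libraries, at 91.2, 70.3 and 82.5 TPM. Tpp1, which clips tripeptides from the ends of proteins (chromosome 7, 105394018 to 105401442), stood at 5.96, 20.97 and 4.11 TPM, with 354, 1135 and 218 counts. Replicate 2 was the high one, and the call ended whichever library was left out (limma, adjusted p = 0.117, 0.0752 and 0.0623 without replicates 1, 2 and 3). Acp2, the lysosomal acid phosphatase, stood at 5.64, 10.3 and 8.57 TPM. It overlaps Ddb2, which had 479, 241 and 53 counts beside 469, 777 and 635 for Acp2. In all, 17 of the 38 genes overlap another gene, and in 8 of them that gene had at least 10% of the lysosomal gene's counts.

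The calls above 10 TPM depended on the number of libraries. Cd63, Lamp1, Hexa, Npc2, Fuca1, Lgmn and Aga kept theirs whichever library was left out. The other 9, Psap, Lamp2, Ppt1, Asah1, Gm2a, Gaa, Ids, Smpd1 and Hgsnat, lost theirs without replicate 1 (limma, adjusted p between 0.0519 and 0.27). Without replicate 2, 5 of these were lost (adjusted p between 0.0572 and 0.136), and without replicate 3, 4 were lost (limma, adjusted p between 0.0556 and 0.171).

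Genes that act together, or are relatives as Ppt1 and Ppt2 are, were compared within each library, in 8 pairs. The test was a two-sided exact permutation test that flips the sign of each library's difference. With 3 libraries the smallest p is 0.25, so no pair could pass 0.05, and the signs and sizes are the result. Npc2 exceeded Npc1 by 4.27 ± 0.25 on the log2(TPM + 1) scale, and Ppt1 exceeded Ppt2 by 4.61 ± 0.62, in 3 of 3 libraries each. Hgsnat exceeded Sgsh by 3.35 ± 1.04 and Psap exceeded Grn by 3.20 ± 0.28 in 3 of 3 libraries. Lamp1 exceeded Lamp2 by 2.11 ± 0.73, with 2.55, 1.27 and 2.53 in replicates 1, 2 and 3. Gm2a lay below Hexa by a difference of -1.82 ± 0.14, the narrowest spread of the 8. For these 6 pairs the exact permutation p was 0.25 and the adjusted p 0.333 over 8 pairs.

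In the remaining pairs the libraries did not share a sign. Asah1 minus Smpd1 was 1.20, 1.86 and -0.23 in replicates 1, 2 and 3 (mean 0.94 ± 1.07, exact permutation p = 0.5, adjusted p = 0.5). Neu1 minus Glb1, the sialidase and galactosidase of 1 lysosomal complex, was -0.56, -0.68 and 0.40 (mean -0.28 ± 0.59, exact permutation p = 0.5, adjusted p = 0.5). The sizes rest on gene length: in CPM, without length, Lamp1 exceeded Lamp2 by 0.32 and Gm2a lay below Hexa by a difference of -0.79. In CPM the libraries of Lamp1 and Lamp2 did not share a sign (exact permutation p = 0.5), since Lamp2 was the higher in replicate 2, at 458 against 317 CPM. With the longest transcript of each gene as its length, Lamp1 exceeded Lamp2 by 1.01 and Psap exceeded Grn by 2.02, and Neu1 minus Glb1 changed sign, to 0.0053.

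**Figure D3:**
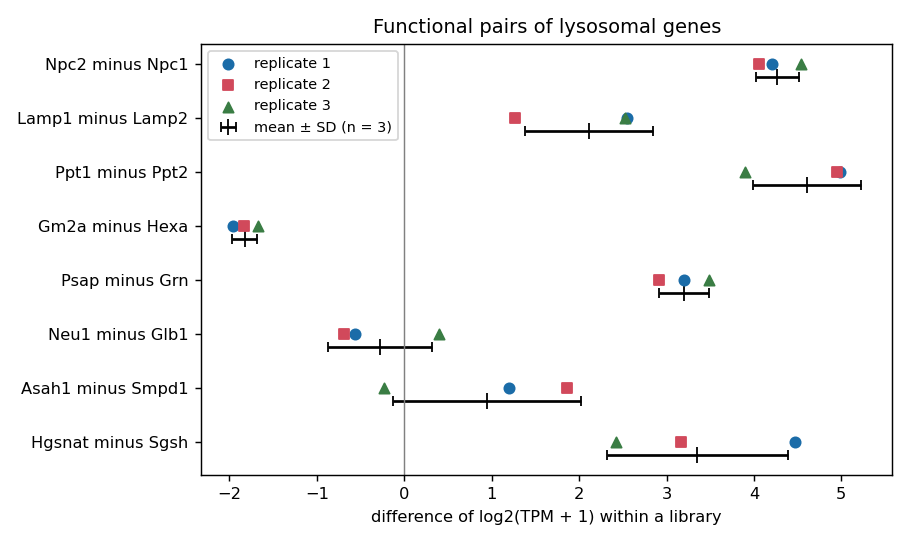
Difference of log2(TPM + 1) between 2 lysosomal genes within each library, for 8 pairs of related genes. Points are libraries and black bars the mean ± SD (n = 3). The libraries lie on 1 side of 0 for 6 pairs and on both sides for Neu1 minus Glb1 and Asah1 minus Smpd1.

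The order of the genes changed with the gene length used. The length behind the deposited values exceeded the longest transcript of the GENCODE M21 annotation, matched by Ensembl identifier, by a median factor of 1.96 for the 38 genes and 1.38 over 25973 genes tested. The factor ranged from 1.00 for Hexa and Gm2a to 3.78 for Galc. With the longest transcript as length, Grn stood at 34.7 TPM in place of 15.2, Cln3 at 9.24 in place of 3.83, Npc1 at 13.1 in place of 6.21, and Gusb at 18.9 in place of 9.45 TPM. Hexa stood at 121 TPM in place of 179. Hexa moved from rank 3 to rank 6 and Lamp2 from rank 8 to rank 5, so that Lamp2 took the place of Hexa among the 5 highest. Cd63 and Lamp1 kept the first and second place, and Sgsh, Galns, Galc and Ppt2 were still the 4 lowest. Galc and Ppt2 were then called above 1 TPM (limma, adjusted p = 0.0346 and 0.0338), which brought the count to 35 of 38. Over all genes 10548 of 25973 were called in that setting, beside 10264 of 27265 with the deposited length.

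**Figure D4:**
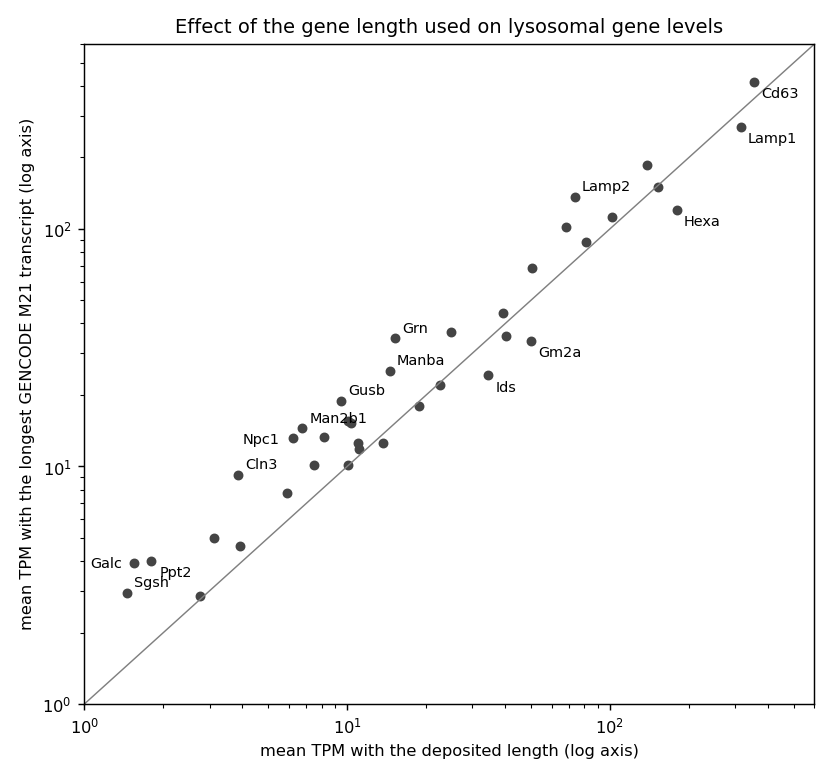
Mean TPM of the 38 genes with the deposited gene length (x axis) and with the longest GENCODE M21 transcript (y axis), both on log axes; points are genes and the line marks equal values. Galc, Cln3 and Grn lie farthest above the line, and Hexa and Gm2a lie below it.

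The spread between libraries differed from gene to gene. The SD of log2(TPM + 1) over the libraries had a median of 0.43 for the 38 genes. It was 0.58 for the 15344 genes with a mean in the same range and 0.46 for all genes tested. The 15344 genes were not matched in level: their median was 7.22 TPM against 14.1 TPM. Of them, 1138 were at 0 in some library, while none of the 38 was. In 11 of the 38 the SD was above 0.58. In 25 genes the highest library was under 2 times the lowest, and in 4 it was over 5 times: Idua, Ctns, Sgsh and Tpp1. The steadiest were Npc1 (SD 0.09), Galns (0.10), Cln3 (0.14), Lgmn (0.19) and Aga (0.20), which include abundant and scarce genes.

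Replicate 2 was the low library for 20 of the 38 genes, replicate 3 for 12 and replicate 1 for 6. The median deviation from each gene's own mean was 0.17, -0.21 and 0.06 on the log2(TPM + 1) scale in replicates 1, 2 and 3, beside 0.04, -0.08 and -0.02 over all genes tested. Over the 15344 genes with a mean in the same range it was 0.16, -0.13 and -0.02. That was close to the lysosomal value in replicate 1 only. Replicate 2 was the lowest for those genes as well, though less so. With TMM scaling, which adjusts for composition, the lysosomal genes stood at 0.14, -0.10 and -0.03, so replicate 2 was lowest in TPM and with TMM, as it was in CPM, and the sign of replicate 3 changed. Deviations of the macrophage list were -0.24, -0.10 and 0.35, and those of the epithelium list 0.38, 0.08 and -0.26; with TMM scaling the macrophage value in replicate 2 was 0.01. The 15 macrophage markers summed to 7627, 4788 and 5794 TPM, with none at 0 in a library, and the 8 epithelium markers to 2565, 1772 and 1836 TPM, with none at 0. The part of these cell types in the lysosomal values was not tested.

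**Figure D5:**
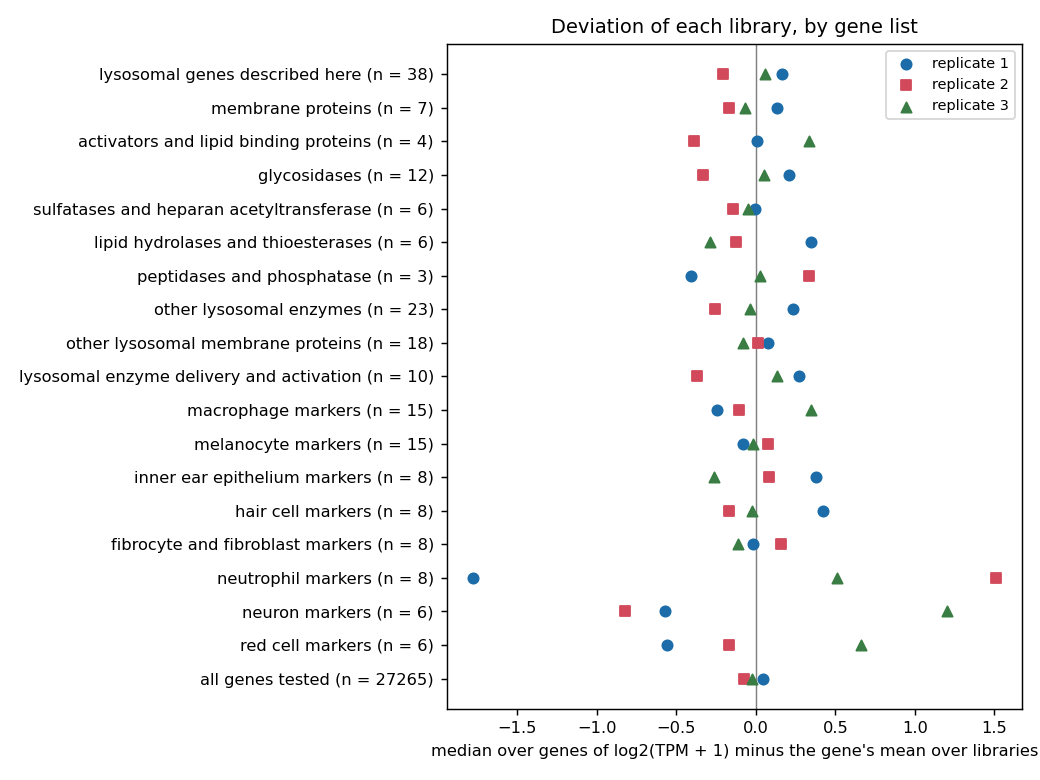
Median over genes of log2(TPM + 1) minus the gene's own mean, for each library, in the lysosomal genes, their role groups, other lysosomal lists, cell type markers and all genes tested; each point is 1 library. The lysosomal genes spread from -0.21 to 0.17, the neutrophil markers from -1.78 to 1.51.

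Marker lists of other cells also differed between libraries. Idua and Sgsh were highest in replicate 3, where the 6 neuron markers summed to 381 TPM against 115 and 87.3 TPM in replicates 1 and 2, with 5 of 6 called (3 without replicate 3) and none at 0. The 6 red cell markers were also highest there, at 51505 against 21788 and 29971 TPM. Tpp1 was highest and Ctns lowest in replicate 2, where the 8 neutrophil markers summed to 403 TPM against 20.04 and 147 TPM in replicates 1 and 3. Of those, 3 of 8 were called above 1 TPM, beside 37.6% of all genes tested and 50.5% of the protein-coding ones. The count was 0 without replicate 2 and 0 without replicate 3, while calls over all genes fell from 10264 to 7672 and 8285. Cxcr2 was listed at 0 in replicate 1. Replicates 1, 2 and 3 were the high library for 17, 5 and 16 of the lysosomal genes, and replicate 2 was the low library for 20. By median deviation on the log2(TPM + 1) scale, the macrophage list was also highest in replicate 3 (0.35). The macrophage sum was instead highest in replicate 1, at 7627 TPM. The part of any of these marker lists in the values of Idua, Sgsh, Tpp1 and Ctns was not tested.

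The rest of the lysosomal system was described from lists of genes taken by function. Of 23 other lysosomal enzymes, 18 were called above 1 TPM and 6 above 10 TPM, beside 50.5% and 19.2% of the protein-coding genes tested. The count above 10 TPM was 10 with the longest transcript as length and 16 in CPM. Among the highest were Creg1 (182 ± 34.4 TPM), a secreted and lysosomal glycoprotein, the ribonuclease Rnaset2a (145 ± 5.51 TPM) and the carboxypeptidase Scpep1 (118 ± 22.7 TPM). Rnaset2a has a near-identical copy, Rnaset2b, so its level is uncertain. Pla2g15, Arsg, Hyal1, Man2b2 and Siae were not called, with means between 1.71 and 3.52 TPM.

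Of 18 other membrane proteins of the lysosome, 13 were called above 1 TPM and 8 above 10 TPM (13 in CPM). The protein-coding shares were again 50.5% and 19.2%. Laptm4a stood at 531 ± 111 TPM, above every one of the 38 genes in mean level when Cd63-ps is not counted with Cd63. Cd63 and Cd63-ps, each over its own length, summed to 2204 ± 994 TPM. After Laptm4a came the macrophage-associated Cd68 (152 ± 6.46 TPM), the sialomucin Cd164 (134 ± 62.6 TPM) and Laptm4b (89.3 ± 31.2 TPM). Slc38a9, Slc36a1, Slc29a3, Mfsd8 and Lamp3 were not called. Without replicates 1 and 2 in turn, the count above 10 TPM was 3 and 4.

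The machinery that delivers and activates the enzymes was lower than these lists, with 6 of 10 genes called above 1 TPM and a median of 5.78 TPM. It was near the protein-coding genes tested, of which 50.5% were called above 1 TPM and 19.2% above 10 TPM, with a median of 4.55 TPM. The count above 1 TPM was 3 without replicate 1, and that above 10 TPM was 2 with all libraries, 4 in CPM, 0 without replicate 1 and 1 without replicate 2. Gnptg, a subunit of the enzyme that makes the mannose 6-phosphate tag, stood at 80.3 ± 20.3 TPM. Gnptab, which encodes the catalytic subunits of that enzyme and is named here after its values were seen, stood at 5.67 ± 3.19 TPM. The smaller receptor for the tag, M6pr, stood at 26.1 ± 3.95 TPM, and the larger, Igf2r, at 2.72 ± 1.40 TPM, which was not called (limma, adjusted p = 0.133). Sumf1, which activates all sulfatases by modifying a cysteine in each, stood at 14.8 ± 5.48 TPM, and the sorting adaptor Gga1 at 10.8 ± 5.57 TPM. Nagpa, Gga2 and Gga3 were not called either.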

How the data were processed

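Raw counts per gene and FPKM were deposited by the authors for each of 3 libraries, per the file headers. HISAT2, StringTie, edgeR and the build GRCm39 are named, per the submitters' processing notes, without versions, roles or order. Strand and multimapping settings are not stated per the labels. Values show that the deposited FPKM equalled the count over a fixed length per gene and the column total, within 0.0032% between libraries for genes with at least 20 counts in each.

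FPKM was rescaled to TPM and analysed as log2(TPM + 1), which understates differences among low genes. The test against 1 or 10 TPM was fitted with limma 3.58.1 in R 4.3.3, with an intercept only and a mean-variance trend, over the 27265 genes counted in any library, adjusted by Benjamini-Hochberg, after it was tested on simulated data. TMM factors came from edgeR 4.0.16. Transcript lengths came from GENCODE M21 (GRCm38), used for length only. Libraries were treated as 3 replicates of 1 group, numbered as in their titles, so no comparison between groups was possible.

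The genes, lists and tests were chosen with earlier results of these data known. All 38 genes are named, and in each further list the 4 with the highest mean and those not called, except 1 gene that is not reported here. Alternatives were other pseudocounts, CPM, filters, TMM, no trend, leaving out each library and, chosen after seeing the data, the longest transcript as length.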

Additional observations from a re-analysis of the deposited data

How the results depend on the processing

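The count of lysosomal genes above 1 TPM was within 1.5 times of 33 under each of 11 alternatives, between 26 and 35, and 26 to 29 without 1 library. Above 10 TPM it was 16, but 28 in CPM without gene length, and 7 to 12 without 1 library. Calls over all genes moved the same way, from 4017 to 6608 in CPM and to between 1606 and 3277 without 1 library. The mean of log2(TPM + 1) over the 38 genes was 4.27 ± 0.16. It was 4.07 and 4.73 with pseudocounts of 0.1 and 5, 5.56 in CPM, 4.60 with the longest transcript as length (chosen after seeing the data), 4.02 as a median, and 4.21 to 4.36 without 1 library. The median SD between libraries was 0.43. It was 0.44 and 0.32 with pseudocounts of 0.1 and 5, 0.38 in CPM, 0.38 with TMM scaling, and 0.34 to 0.38 without 1 library. Of 64 pair differences over the alternatives, 2 changed sign, both for Neu1 minus Glb1: 0.36 in CPM and 0.0053 with the longest transcript. The longest transcript was known for 25973 of the 27265 genes, so that setting also scaled TPM over fewer genes. Calls above 1 TPM also changed with a pseudocount of 5, which ended those of Cln3, Ctns and Gla (limma, adjusted p = 0.0664, 0.074 and 0.0834), and without the trend, which ended that of Ctns (0.071). Galns passed under 4 alternatives, among them a pseudocount of 0.1 (adjusted p = 0.0369). In CPM, Sgsh (0.0328) and Galc (0.000869) passed. No paired analysis was possible because the libraries form 1 group. Idua, Sgsh, Galns, Galc and Ppt2, which were not called, had 4 to 497 counts in a library, and the part of depth was not tested.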
